A study of Mus musculus with 24 samples.

Results

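A set of 8 mouse genes with little or no recorded role in liver were followed across the livers of 20 mice: Chrna4, Sema5b, 1810046K07Rik, Fam25c, Pmm1, Dop1b, 4930480G23Rik and Moxd1. They were picked by symbol because their RNA differed strongly between a low-fat diet (LFD) and a high-fat diet (HFD) in one or both genotypes and because none has a standard place in lipid metabolism. Each symbol matched 1 gene identifier, so the set is 8 genes of the 41388 in the files, and all 8 are among the 13052 genes that passed the filter on low counts. Because the diet differences chose the genes, those differences are given below as a description, with no p, and the same holds for the genotypes within 1 diet, which rest on the same levels. The comparison of the genotypes averaged over the diets was not among the stated reasons for the choice and is tested. The genes were chosen with earlier results of these data known, so its p values are not free of that knowledge.

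The genes have roles known mainly from other tissues. Chrna4 encodes a ligand-binding subunit of the neuronal nicotinic acetylcholine receptor, an ion channel that opens on acetylcholine and that is best known in brain. Sema5b encodes a transmembrane semaphorin, one of a family of guidance cues read by plexin and neuropilin receptors. Pmm1 encodes a phosphomannomutase, which interconverts mannose-6-phosphate and mannose-1-phosphate on the way to glycoprotein sugars. Dop1b encodes a large protein that works with Mon2 in traffic between endosomes and the Golgi. Moxd1 encodes a relative of dopamine beta-hydroxylase, the copper enzyme that makes noradrenaline, and its own substrate is not established. 1810046K07Rik encodes a coactivator that pairs with the transcription factor Pou2f3 in tuft cells, chemosensory cells of epithelia. Fam25c encodes a small protein without an assigned function, and 4930480G23Rik is a long noncoding RNA.

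The livers came from male mice on a C57BL/6J background that were 8 weeks old at the start of the diets. Adn-Lpin1-/- mice carried floxed Lpin1 alleles and a Cre driven by the adiponectin promoter, so lipin 1, an enzyme of triglyceride synthesis, was lost in adipocytes and not in liver. Their WT littermates carried the same floxed alleles without Cre. Mice were fed an LFD (10% of kcal from fat) or an HFD (60% of kcal from fat) and were fasted for 4 h before sacrifice. The diets lasted 16 weeks in the sample labels and 5 weeks in the methods of the study, which give 16 weeks for other diets. Poly-A selected RNA was sequenced for 5 mice in each of the groups WT LFD, Adn-Lpin1-/- LFD, WT HFD and Adn-Lpin1-/- HFD, and 1 further library per group pooled RNA of the mice of that group. Single mice had between 36260187 and 81072794 counts in total, and the group medians, LFD before HFD, were 40777580 and 57124312 in WT and 52955319 and 62306028 in Adn-Lpin1-/-. The hepatocyte markers Alb, Apoa1, Ttr and Cps1 together held between 71624 and 115581 CPM (counts scaled to library size) in every mouse, and 3 of these 4 markers were lower in Adn-Lpin1-/- livers. In whole liver, fewer cells of a type and less RNA per cell cannot be told apart.

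Levels are CPM on library sizes scaled by the TMM method, and levels between genes are compared per kilobase of exon (RPKM). Per length, Fam25c was the most abundant of the 8 genes at a mean of 45.3 RPKM over the 20 mice, above 91.9% of the genes tested. Dop1b followed at 5.87 RPKM, Chrna4 at 3.27 RPKM, the noncoding RNA 4930480G23Rik at 2.47 RPKM, Sema5b at 1.41 RPKM, Pmm1 at 1.36 RPKM, 1810046K07Rik at 1.06 RPKM and Moxd1 at 0.602 RPKM. The median gene tested stood at 3.79 RPKM. The genes also differed in how much mice of one group varied. The biological coefficient of variation was 1.13 for Moxd1, above 99.95% of genes tested, and exceeded that of at least 97.1% of genes for Chrna4, Sema5b and 1810046K07Rik. Dop1b was the steadiest at 0.183, above 68.8% of genes, against a median of 0.134 over all genes tested.

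**Figure D1:**
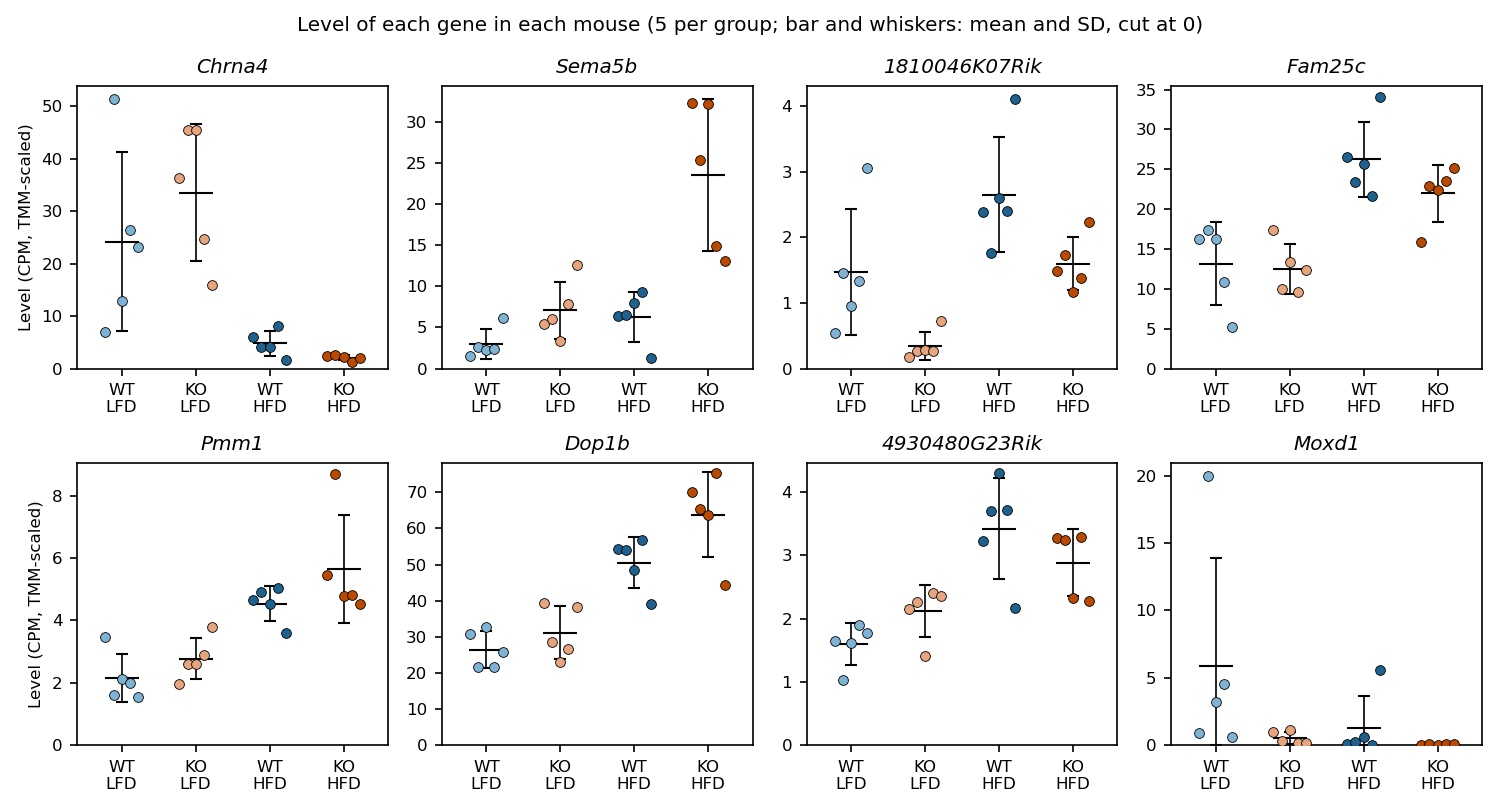
Level of each of the 8 genes in each of the 20 mice, in CPM on TMM-scaled library sizes from 0 upward; KO stands for Adn-Lpin1-/-, points are mice in the order of their numbers, and the bar and whiskers are the mean and SD of 5 mice, with the lower whisker ending at 0. Chrna4 is low in both HFD groups, 6 genes are higher on the HFD in both genotypes, and single mice such as WT LFD mouse 2 at 19.99 CPM carry the Moxd1 means.

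Chrna4 (ENSMUSG00000027577, GRCm38 chr2:181018380-181043546, minus strand) was the gene with the largest fold change by diet, lower on the HFD in both genotypes. In WT LFD its level was 7.03, 51.4, 12.9, 26.5 and 23.2 CPM in mice 1 to 5, and in Adn-Lpin1-/- LFD it was 36.3, 45.5, 45.5, 24.6 and 16.0 CPM. Among the HFD mice it was 6.0, 4.02, 4.10, 8.18 and 1.64 CPM in WT, against Adn-Lpin1-/- values of 2.45, 2.55, 2.13, 1.19 and 2.07 CPM. All 5 Adn-Lpin1-/- HFD mice lay below all Adn-Lpin1-/- LFD mice, while in WT the lowest LFD mouse lay below the highest HFD mouse. The group means fell in the order Adn-Lpin1-/- LFD, WT LFD, WT HFD, Adn-Lpin1-/- HFD, and in that order the genotypes overlapped on each diet. The ratio of the group means was 5.05-fold lower on the HFD in WT and 16.1-fold lower in Adn-Lpin1-/-, and the fitted log2 fold change was -2.34 (SE 0.45) and -4.01 (SE 0.48). The counts behind these levels ran from 69 to 2854 per mouse, so counting error was small beside the spread between mice.

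Moxd1 (ENSMUSG00000020000, GRCm38 chr10:24223517-24302790, plus strand) was the other gene with a lower level on the HFD, and it rested on few mice. In WT LFD its level was 0.901, 19.99, 3.19, 4.53 and 0.592 CPM, and in Adn-Lpin1-/- LFD 0.966, 0.289, 1.12, 0.115 and 0.164 CPM. Among the HFD mice it was 0.073, 0.218, 0.571, 0 and 5.55 CPM in WT, while for Adn-Lpin1-/- only 2, 4, 2, 4 and 6 reads were counted per mouse. A count of 3 is the limit that a count of 0 allows, so Moxd1 was at the edge of detection in Adn-Lpin1-/- HFD. By diet, Moxd1 had a log2 fold change of -2.18 (SE 1.00) in WT and -3.33 (SE 1.47) in Adn-Lpin1-/-. WT LFD mouse 2 and WT HFD mouse 5 decided the WT value: it was -0.83 without the former and -4.73 without the latter. With voom and quality weights it was -4.24.

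Dop1b (ENSMUSG00000022946, GRCm38 chr16:93711907-93810585, plus strand) and Pmm1 (ENSMUSG00000022474, GRCm38 chr15:81951108-81960930, minus strand) were higher on the HFD by close to the same amount in both genotypes. The level of Dop1b in WT mice was 30.6, 21.5, 32.6, 21.5 and 25.6 CPM on the LFD and 54.3, 54.1, 48.6, 56.7 and 39.1 CPM on the HFD. Its level in Adn-Lpin1-/- mice was 39.4, 28.5, 22.9, 26.6 and 38.2 CPM on the LFD against 70.2, 65.5, 63.7, 75.3 and 44.3 CPM on the HFD. In each genotype all 5 HFD mice were above all 5 LFD mice. Pmm1 in WT mice was at 2.14 ± 0.772 CPM (SD, n = 5) on the LFD and 4.53 ± 0.570 CPM on the HFD, and in Adn-Lpin1-/- mice at 2.77 ± 0.661 CPM against 5.66 ± 1.73 CPM, and again no HFD mouse overlapped an LFD mouse of its genotype. The log2 fold change on the HFD was 0.94 (SE 0.17) in WT and 1.03 (SE 0.16) in Adn-Lpin1-/- for Dop1b, and 1.08 (SE 0.23) and 1.03 (SE 0.22) for Pmm1. The antisense gene 2310043M15Rik overlaps Dop1b on the opposite strand and had 410 counts in the 20 mice together. Whether reads were counted by strand is not given in the sources used here.

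The 250 bases upstream of the RefSeq start were compared for the 7 genes that have a promoter entry (RefSeq, GRCm38.p6). These windows are shown for Dop1b and Pmm1, which had like diet differences in both genotypes, and for 1810046K07Rik and Moxd1, which had lower levels in Adn-Lpin1-/- livers. Each is written from 5′ to 3′ on the strand of the gene, and capitals mark matches of the GC box (GGGCGG) or the CCAAT box (CCAAT) on either strand.
Dop1b, chr16:93711657-93711906, plus strand: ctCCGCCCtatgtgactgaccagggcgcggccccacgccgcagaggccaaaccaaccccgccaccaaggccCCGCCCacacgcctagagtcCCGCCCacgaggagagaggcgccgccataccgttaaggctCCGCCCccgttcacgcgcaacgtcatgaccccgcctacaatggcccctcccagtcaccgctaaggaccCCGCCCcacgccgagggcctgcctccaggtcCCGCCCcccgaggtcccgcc
Pmm1, chr15:81960931-81961180, minus strand: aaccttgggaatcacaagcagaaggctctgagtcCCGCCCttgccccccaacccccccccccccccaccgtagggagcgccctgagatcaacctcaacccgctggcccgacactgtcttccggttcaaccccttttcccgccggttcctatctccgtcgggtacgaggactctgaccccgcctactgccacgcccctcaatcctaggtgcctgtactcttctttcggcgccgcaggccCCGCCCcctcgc
1810046K07Rik, chr9:51328919-51329168, minus strand: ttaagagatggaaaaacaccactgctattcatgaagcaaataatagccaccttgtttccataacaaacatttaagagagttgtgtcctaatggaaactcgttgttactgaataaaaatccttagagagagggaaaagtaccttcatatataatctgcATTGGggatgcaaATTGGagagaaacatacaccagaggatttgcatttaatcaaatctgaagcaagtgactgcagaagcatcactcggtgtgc
Moxd1, chr10:24223267-24223516, plus strand: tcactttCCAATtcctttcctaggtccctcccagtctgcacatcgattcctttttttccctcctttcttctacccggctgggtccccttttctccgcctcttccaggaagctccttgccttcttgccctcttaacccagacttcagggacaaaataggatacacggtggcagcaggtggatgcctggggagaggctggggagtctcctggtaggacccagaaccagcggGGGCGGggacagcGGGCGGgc
The Dop1b window held 6 GC boxes and the Pmm1 window 2, whereas that of 1810046K07Rik held none and had 2 CCAAT boxes, which began 93 and 80 bases before the start. The share of G and C was 72.4% for Dop1b, 66.0% for Pmm1, 58.4% for Moxd1 and 37.6% for 1810046K07Rik, against a median of 52.4% over 32851 promoter windows. Of the other windows, Chrna4 had 3 GC boxes and Sema5b had a match to none of the motifs searched, which also included the TATA box (TATAAA), the E-box (CACGTG) and AGGTCA, the core sequence of many nuclear receptor sites. The RefSeq start lies inside the gene span given here by 4369 bases for Chrna4 and by 217 bases for Sema5b. The Chrna4 window thus lies within the gene as it was counted. The Fam25c window held TATAAA 29 bases before the start and AGGTCA at 229 and 110 bases. Of all windows of this length, 32.7% held a GC box, 33.8% a CCAAT box, 12.4% TATAAA, 14% AGGTCA and 6.02% CACGTG. A match describes letters and is not a measured site.

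Fam25c (ENSMUSG00000043681, GRCm38 chr14:34351881-34355433, minus strand) and 4930480G23Rik (ENSMUSG00000086332, GRCm38 chr4:19979445-19985388, minus strand) were also higher on the HFD. Fam25c in WT mice was between 5.15 and 17.4 CPM (median 16.2) on the LFD and between 21.7 and 34 CPM (median 25.7) on the HFD. In Adn-Lpin1-/- mice it was between 9.56 and 17.4 CPM (median 12.3) against 15.9 to 25.2 CPM (median 22.9). The diets did not overlap in WT and overlapped by 1 mouse of each diet in Adn-Lpin1-/-, and the log2 fold change was 1.00 (SE 0.24) and 0.81 (SE 0.24). 4930480G23Rik in WT mice was at 1.59 ± 0.333 CPM (SD, n = 5) on the LFD and 3.42 ± 0.796 CPM on the HFD, and in Adn-Lpin1-/- mice at 2.12 ± 0.410 CPM against 2.89 ± 0.534 CPM. Its diets did not overlap in WT, with a log2 fold change of 1.10 (SE 0.20), and overlapped in Adn-Lpin1-/-, with 0.45 (SE 0.20). The highest mean of this RNA was thus in WT HFD, as it was for Fam25c and 1810046K07Rik, while Sema5b, Pmm1 and Dop1b were highest in Adn-Lpin1-/- HFD.

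Sema5b (ENSMUSG00000052133, GRCm38 chr16:35541145-35664732, plus strand) was higher on the HFD and higher in Adn-Lpin1-/- livers. Its level was 1.52, 2.56, 2.29, 2.37 and 6.14 CPM in WT LFD and 5.45, 6.04, 3.40, 7.88 and 12.7 CPM in Adn-Lpin1-/- LFD. Among the HFD mice it was 6.42, 6.52, 7.99, 9.35 and 1.30 CPM in WT, against Adn-Lpin1-/- values of 32.4, 25.4, 32.3, 14.9 and 13.1 CPM. All 5 Adn-Lpin1-/- HFD mice lay above every mouse of the other groups, and the means of Adn-Lpin1-/- LFD and WT HFD, the middle groups, differed by less than their spread. WT HFD mouse 5 was the lowest of the 20 mice, although 4 of 5 WT HFD mice were above every WT LFD mouse. By diet, its log2 fold change was 1.08 (SE 0.45) in WT and 1.74 (SE 0.43) in Adn-Lpin1-/-. The processed pseudogene Gm5963 lies inside Sema5b on the opposite strand and had 4605 counts of its own in the 20 mice. Gm5963 had a log2 fold change of -0.24 (SE 0.19) by diet in WT, -0.25 (SE 0.19) in Adn-Lpin1-/- and -0.24 (SE 0.13) by genotype averaged over the diets (adjusted p = 0.17, edgeR).

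1810046K07Rik (ENSMUSG00000036027, GRCm38 chr9:51289686-51328917, minus strand) was lower in Adn-Lpin1-/- livers and had its widest diet difference there. Its level was 0.540, 1.46, 0.953, 1.33 and 3.06 CPM in WT LFD and 0.17, 0.270, 0.287, 0.269 and 0.721 CPM in Adn-Lpin1-/- LFD, the latter from 9 to 44 counts per mouse. Among the HFD mice it was 2.39, 1.77, 2.59, 2.41 and 4.11 CPM in WT, against Adn-Lpin1-/- values of 1.49, 1.73, 1.17, 1.38 and 2.23 CPM. In Adn-Lpin1-/- LFD, 4 of the 5 mice were below every mouse of the other groups, and between the Adn-Lpin1-/- groups the ratio of the group means was 4.66-fold higher on the HFD. By diet, its log2 fold change was 0.85 (SE 0.37) in WT and 2.20 (SE 0.41) in Adn-Lpin1-/-. The tuft cell markers Pou2f3, Trpm5, Avil, Dclk1, Il25 and Sh2d6 were all under the filter, with a sum between 0.0772 and 1.07 CPM per mouse, and Pou2f3 itself had at most 5 counts in a mouse.

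The genes were chosen for these differences, so the counts that follow describe the choice and test nothing. At the threshold used over the whole table, 5 of the 8 genes were past it by diet in WT (Chrna4, Fam25c, Pmm1, Dop1b and 4930480G23Rik), where 1.1% of all genes tested were. Chrna4 was the lower one (0.674% of all genes were called lower) and the other 4 were higher (0.429%). In Adn-Lpin1-/- there were also 5 (Chrna4, Sema5b, 1810046K07Rik, Pmm1 and Dop1b), where 2.46% of all genes were, again 1 lower (1.26% of all genes) and 4 higher (1.2%). Chrna4, Pmm1 and Dop1b were past it in both genotypes, as were 0.398% of all genes tested, and Moxd1 was past it in neither. The study's supplement, from its own fit, lists Chrna4 and Moxd1 as lower on the HFD in both genotypes. It also lists 1810046K07Rik as higher on the HFD in Adn-Lpin1-/-. The diets did not overlap for 4 of the 8 genes in WT (3.73% of all genes) and for 6 in Adn-Lpin1-/- (4.06% of all genes), Pmm1 and Dop1b being in both counts (0.536% of all genes). The diet difference in Adn-Lpin1-/- minus that in WT was -1.66 (SE 0.62) on the log2 scale for Chrna4, 1.35 (SE 0.54) for 1810046K07Rik, -0.66 (SE 0.28) for 4930480G23Rik and 0.66 (SE 0.62) for Sema5b. It was smaller than its error for Fam25c, Pmm1, Dop1b and Moxd1, at -0.19 (SE 0.33), -0.06 (SE 0.31), 0.10 (SE 0.23) and -1.15 (SE 1.79). Over all genes tested, edgeR called 0 such differences (0%), with 938 genes at an unadjusted p under 0.05, DESeq2 called 30 and voom 0.

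**Figure D2:**
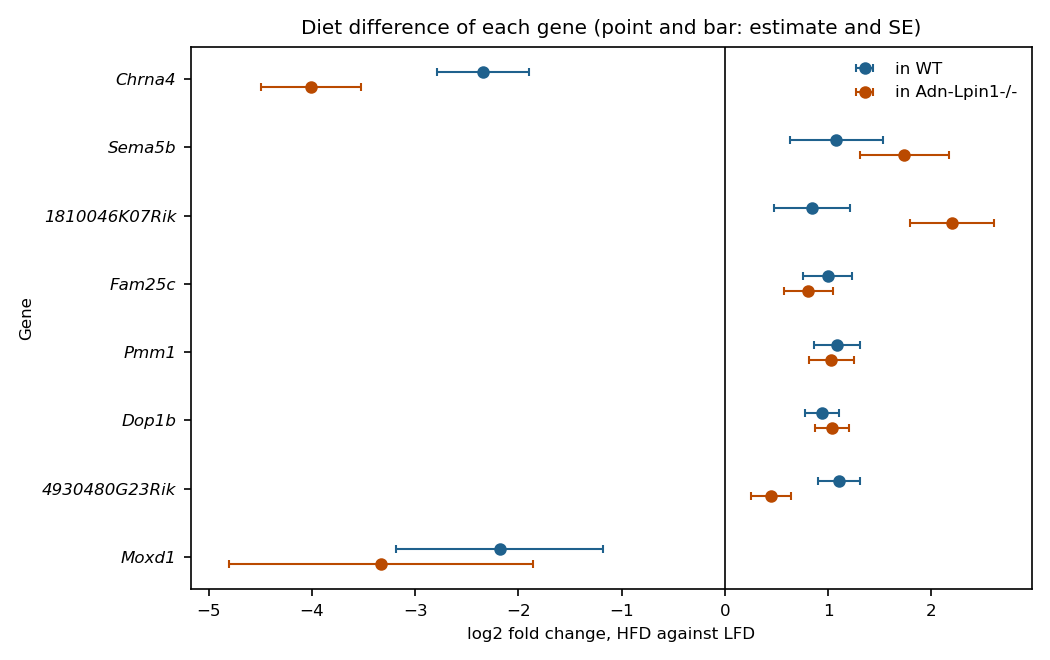
Diet difference of each of the 8 genes as a log2 fold change of HFD against LFD, in WT and in Adn-Lpin1-/- (points, estimates from the fit of 20 mice; bars, SE). Chrna4 and Moxd1 lie left of 0 and the other genes right of it, and the genotypes lie farthest apart for Chrna4 (-2.34 and -4.01) and 1810046K07Rik (0.85 and 2.20) among the genes with an SE under 1.

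The pooled libraries, prepared from RNA of the same mice and so not independent of them, gave the same direction of the diet difference in all 16 cases. Pool against pool, the log2 ratio of HFD to LFD was -1.99 in WT and -4.11 in Adn-Lpin1-/- for Chrna4, 1.02 and 1.02 for Dop1b, 0.65 and 1.97 for 1810046K07Rik and 0.62 and 1.95 for Sema5b. It was 1.20 and 0.53 for Pmm1, 0.80 and 0.41 for Fam25c, 0.63 and 0.46 for 4930480G23Rik, and -2.68 and -2.01 for Moxd1. The CPM of the pool lay within the range of its 5 mice in 29 of the 32 combinations of gene and group. Of all genes tested, between 78.5% (WT LFD) and 86.6% (Adn-Lpin1-/- LFD) lay within that range, so the count does not set the 8 genes apart.

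Averaged over the diets, Sema5b was higher in Adn-Lpin1-/- than in WT livers and 1810046K07Rik was lower. The fitted difference of Sema5b was 2.98-fold, a log2 fold change of 1.58 (SE 0.31; adjusted p = 0.000841, edgeR, adjusted by Benjamini-Hochberg over all genes tested). A two-sided exact permutation test of the genotype within each diet gave p = 0.000220 for Sema5b. 1810046K07Rik was 2.64-fold lower, a log2 fold change of -1.4 (SE 0.27; adjusted p = 0.000746 in the edgeR test), and the exact permutation test gave p = 0.000409. Moxd1 was over 1 CPM before TMM scaling in 4 WT mice and 1 Adn-Lpin1-/- mouse, so it passed the filter only through WT, where it was high, and had at most 6 counts in an Adn-Lpin1-/- HFD mouse. Its log2 fold change of -4.03 (SE 0.88) is therefore given as a description, and with voom and quality weights it was -2.36. With Moxd1, 3 of the 8 genes were past the threshold, near the 32.9% of all genes tested that differed between the genotypes, and the count sets these genes apart from no others. The permutation test was run for each of the 8 genes, and its p values are not adjusted.

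The other 5 genes were not called, and their intervals show how large a genotype difference averaged over the diets remains possible. The log2 fold change averaged over the diets was -0.36 for Chrna4 (95% interval -0.97 to 0.24; adjusted p = 0.393, edgeR), -0.16 for Fam25c (-0.49 to 0.16; adjusted p = 0.479) and 0.08 for 4930480G23Rik (-0.20 to 0.36; adjusted p = 0.696). For Chrna4 this average joined values of opposite sign, 0.47 (SE 0.42) on the LFD and -1.19 (SE 0.46) on the HFD. The same was so for 4930480G23Rik, at 0.41 (SE 0.21) on the LFD and -0.25 (SE 0.19) on the HFD. Averaged over the diets, Dop1b was at 0.29 (0.06 to 0.51; adjusted p = 0.0623, edgeR) and Pmm1 at 0.35 (0.04 to 0.65; adjusted p = 0.0933). Dop1b was past the threshold with DESeq2 (adjusted p = 0.0418). The pools repeat the same mice, so adding them as sixth libraries counts those mice again and overstates the evidence. With the pools added in this way, Dop1b and Pmm1 were past the threshold (edgeR adjusted p = 0.0203 and 0.0354). Pmm1 was also past it without WT LFD mouse 1 (edgeR adjusted p = 0.0165), and Dop1b without Adn-Lpin1-/- HFD mouse 5, Adn-Lpin1-/- LFD mouse 3 or WT LFD mouse 3 (adjusted p between 0.0202 and 0.0437).

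Within 1 diet, the genotype difference rests on the levels that gave the diet differences, so it is given without p. On the LFD, 1810046K07Rik was 4.22-fold lower in Adn-Lpin1-/- in the fit (log2 fold change -2.08, SE 0.41), Moxd1 was at -3.45 (SE 1.08) and Sema5b at 1.25 (SE 0.45). The genotypes overlapped on the LFD for all 8 genes, where 10.1% of all genes tested did not overlap. On the HFD, Sema5b was 3.74-fold higher in the fit (1.90, SE 0.43), Chrna4 was at -1.19 (SE 0.46), 1810046K07Rik at -0.73 (SE 0.36) and Moxd1 at -4.60 (SE 1.4). Sema5b on the HFD was the only case among the 8 genes in which the genotypes did not overlap, as for 11.4% of all genes. As a description of the chosen genes, 2 of 8 were past the threshold on the LFD, both lower (14.4% of all genes, 8.11% lower and 6.27% higher), and 2 of 8 on the HFD, 1 higher and 1 lower (18.6% of all genes, 9.87% higher and 8.78% lower). The value of Moxd1 was -2.07 on the HFD without WT HFD mouse 5, and -2.09 on the LFD without WT LFD mouse 2.

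**Figure D3:**
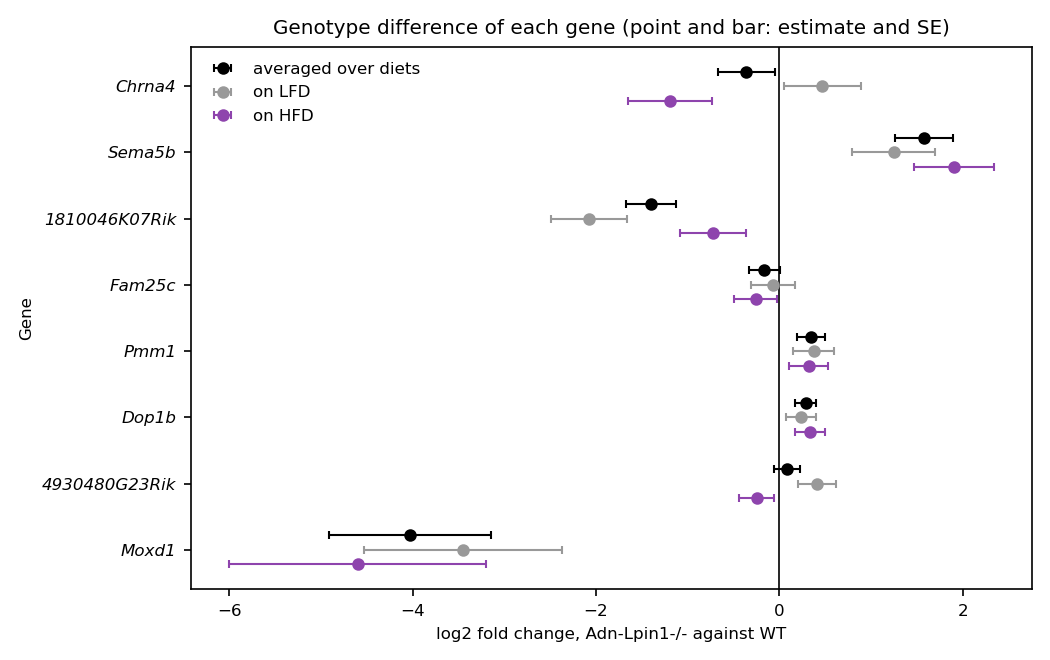
Genotype difference of each of the 8 genes as a log2 fold change of Adn-Lpin1-/- against WT, averaged over the diets and on each diet (points, estimates from the fit of 20 mice; bars, SE). Sema5b lies right of 0 at 1.58, 1810046K07Rik and Moxd1 lie left of it at -1.4 and -4.03, and the averaged values of the other genes lie between -0.36 and 0.35.

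Markers of several other cell types moved with the genotype beside these differences. Of the stellate cell list (Lrat, Reln, Des, Pdgfrb, Col1a1, Col3a1 and Dcn), 4 of 7 genes were higher in Adn-Lpin1-/- livers averaged over the diets, and the summed level per WT mouse ranged from 85.8 to 167 CPM on the LFD and 149 to 221 CPM on the HFD, and per Adn-Lpin1-/- mouse from 177 to 401 CPM and 182 to 415 CPM. In the endothelial list 4 of 4 genes were higher, in the macrophage list 3 of 5, and in the cholangiocyte list 1 of the 4 tested, where 17.1% of all genes tested were called higher. Of the adipocyte list, Adipoq, Lep and Plin1 were under the filter. The mean of Adipoq was 0.908 CPM on the LFD and 0.189 CPM on the HFD in WT and 0.0676 CPM against 0.0270 CPM in Adn-Lpin1-/-, and Lep and Plin1 had at most 5 counts in a mouse. By contrast Cfd, which encodes the secreted protease adipsin, was higher in Adn-Lpin1-/- livers by 3.79 (SE 0.78) on the log2 scale (adjusted p = 0.00108, edgeR). The adipocyte sum, which thus followed Cfd and not Adipoq, ranged in WT mice from 0.261 to 4.63 CPM on the LFD and 1.42 to 16.5 CPM on the HFD, and in Adn-Lpin1-/- mice from 1.76 to 36 CPM and 3.96 to 184 CPM. None of the tested markers was called by diet in either genotype, but some estimates were large. On the log2 scale, the diet difference of Cfd was 2.80 in WT and 2.85 in Adn-Lpin1-/-. That of the 2 tested mesothelium markers was 1.79 and 2.21 in WT, and -0.60 and -0.49 in Adn-Lpin1-/-. The part of these cell types in the levels of Sema5b, 1810046K07Rik and Moxd1 was not tested.

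The relatives and partners of the 8 genes were taken from lists. Over 6 lists with 95 genes, of which 67 were tested, none was called by diet in WT by edgeR and 1 in Adn-Lpin1-/-, the copper importer gene Slc31a1, at a log2 fold change of 0.30 (adjusted p = 0.00192, edgeR), where 1.1% and 2.46% of all genes were called. By genotype averaged over the diets, 20 of the 67 were higher and 8 were lower, against 17.1% and 15.8% of all genes tested. Of 15 other nicotinic receptor subunit genes, 12 were under the filter. The subunits that were tested, Chrna2, Chrnb1 and Chrnb2, stood at diet differences between -0.21 and 0.20 in WT and between -0.30 and 0.15 in Adn-Lpin1-/-. By genotype averaged over the diets, Chrnb1 was higher in Adn-Lpin1-/- livers (0.78, SE 0.26; adjusted p = 0.0247, edgeR), and Chrna2 and Chrnb2 were not called. Per length, Chrna2 (3.92 RPKM) was above Chrna4 (3.27 RPKM) in the mean of the 20 mice, and Chrnb2, the usual partner of the Chrna4 subunit in brain, was at 0.757 RPKM.

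Of the semaphorins and their plexin and neuropilin receptors, 20 of 30 were tested, none was called by diet, and 9 were higher and 2 lower in Adn-Lpin1-/- livers averaged over the diets. Sema5a, the paralog of Sema5b, was under the filter with at most 90 counts in a mouse. Those with the smallest adjusted p were Sema6a (0.68, SE 0.12), Plxnd1 (0.56, SE 0.10), Sema3f (0.63, SE 0.13) and Sema4c (0.66, SE 0.13), each on the log2 scale. Pmm2, the paralog of Pmm1, was far more abundant at 12.6 RPKM, and its diet difference was -0.12 (SE 0.06) in WT and -0.08 (SE 0.06) in Adn-Lpin1-/-. None of the 25 genes of mannose phosphate and dolichol-linked mannose metabolism was called by diet, and their median diet difference was -0.02 in WT and 0.02 in Adn-Lpin1-/-. Dop1a, the paralog of Dop1b, was at 0.03 and 0.01 by diet and lower in Adn-Lpin1-/- livers by genotype (-0.28, SE 0.08; adjusted p = 0.00788, edgeR), and Mon2 was at -0.10 and -0.06 by diet. Among the genes that belong with Moxd1, its paralog Moxd2 had no count in any mouse and Dbh was under the filter with at most 19 counts. Among the genes that belong with 1810046K07Rik, only Pou2f2 of 5 was tested. Pou2f2 was higher in Adn-Lpin1-/- livers averaged over the diets (0.51, SE 0.15; adjusted p = 0.0159, edgeR). The relatives of 1810046K07Rik, Pou2af1 and Colca2, were under the filter. Of 18 core clock genes tested, none was called by diet, where 1.1% and 2.46% of all genes were, and 6 were lower in Adn-Lpin1-/- livers, where 15.8% of all genes were.

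**Figure D4:**
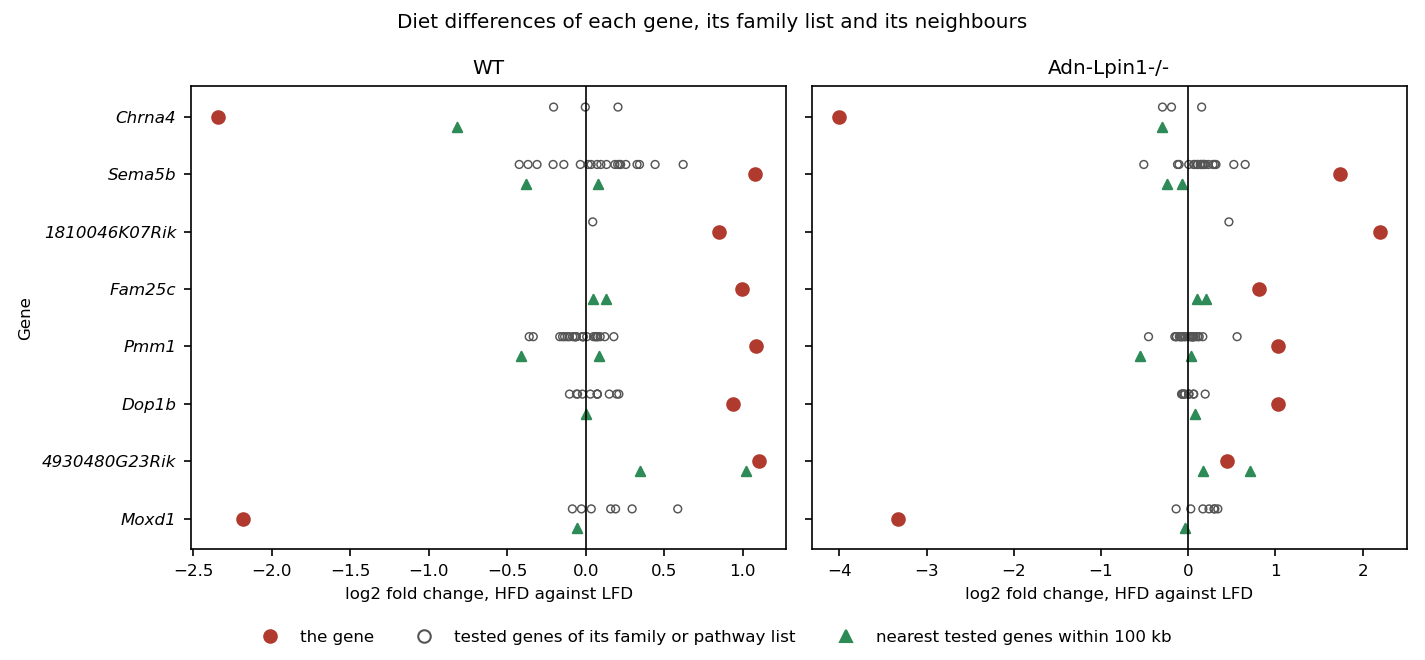
Diet difference (log2 fold change of HFD against LFD) of each of the 8 genes, of the tested genes of its family or pathway list, and of its nearest tested neighbours within 100 kb, in WT (left) and Adn-Lpin1-/- (right). The listed genes lie between -0.42 and 0.62 in WT, and the 8 genes, which were chosen for their diet differences, lie at 0.85 or farther from 0 there. In Adn-Lpin1-/- the listed genes lie between -0.51 and 0.65, and 4930480G23Rik at 0.45 lies within that range. In WT the neighbours Col20a1 and Atp6v0d2 lie at -0.82 and 1.02.

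Within 100 kb of the 8 genes, 25 other genes were tested, with Gm5963, which lies inside Sema5b, among them. None was called by diet in either genotype, where 1.1% and 2.46% of all genes were, and 9 were called by genotype averaged over the diets, near the 32.9% of all genes. 1810046K07Rik had no tested gene in that window. The closest neighbour outside the genes was Col20a1, 840 bases from Chrna4, with a diet difference of -0.82 (SE 0.26; adjusted p = 0.133, edgeR) in WT and -0.31 (SE 0.26; adjusted p = 0.607) in Adn-Lpin1-/-. Among the 11 nearest tested genes on either side, the widest diet difference was that of Atp6v0d2, which encodes a proton pump subunit. It lies 56840 bases from 4930480G23Rik and was at 1.02 in WT (adjusted p = 0.0570, edgeR) and 0.70 in Adn-Lpin1-/- (adjusted p = 0.176).

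Within groups, the mouse-to-mouse variation of some of the 8 genes ran close to that of other genes. With the group means taken out of log2(CPM + 0.5), the gene most like Chrna4 over the 20 mice was Acss2, which encodes the cytosolic acetyl-CoA synthetase (Pearson's r = 0.92), followed by Nsdhl (0.80), a cholesterol synthesis enzyme gene, and G6pdx (0.79), which encodes glucose-6-phosphate dehydrogenase. The mean of Acss2 was 198 CPM on the LFD and 124 CPM on the HFD in WT and 207 CPM against 78.8 CPM in Adn-Lpin1-/-, the same order of groups as Chrna4 over a narrower range. Sema5b was closest to the ubiquitin ligase gene Rnf123 (0.93), the glycogen branching enzyme gene Gbe1 (0.92) and the ceramidase gene Acer2 (0.91), none of which had a diet difference beyond 0.17 on the log2 scale. 4930480G23Rik was closest to Cipc (0.89), which encodes a partner of the clock protein Clock, then Hsd17b10 (0.85) and Ildr2 (0.84). Dop1b was closest to Bnip2 (0.86), Pgm1 (0.83) and Fmo5 (0.82), and Pmm1 to Tapbpl (0.85) and Arhgap9 (0.79). Fam25c was closest to H13 (0.85), Cyp2c67 (0.84) and U2af2 (0.84), 1810046K07Rik to Rab23 (0.85), Pak1 (0.83) and Ostm1 (0.82), and Moxd1 to Grm8 (0.83), Mup-ps20 (0.81) and Tspyl4 (0.77). Mup-ps20 belongs to a family of near-identical copies, so its counts are uncertain. These values are the highest among all genes tested, share the same libraries and depths, and are descriptions. WT HFD mouse 5, an extreme of its group for all 8 genes, was also the lowest of the 20 mice for Rnf123 (55.6 CPM) and Cipc (40.1 CPM). In its group it was the lowest for Acss2, Tapbpl and Bnip2 and the highest for H13, Rab23 and Grm8. It therefore entered the r values of these genes.

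**Figure D5:**
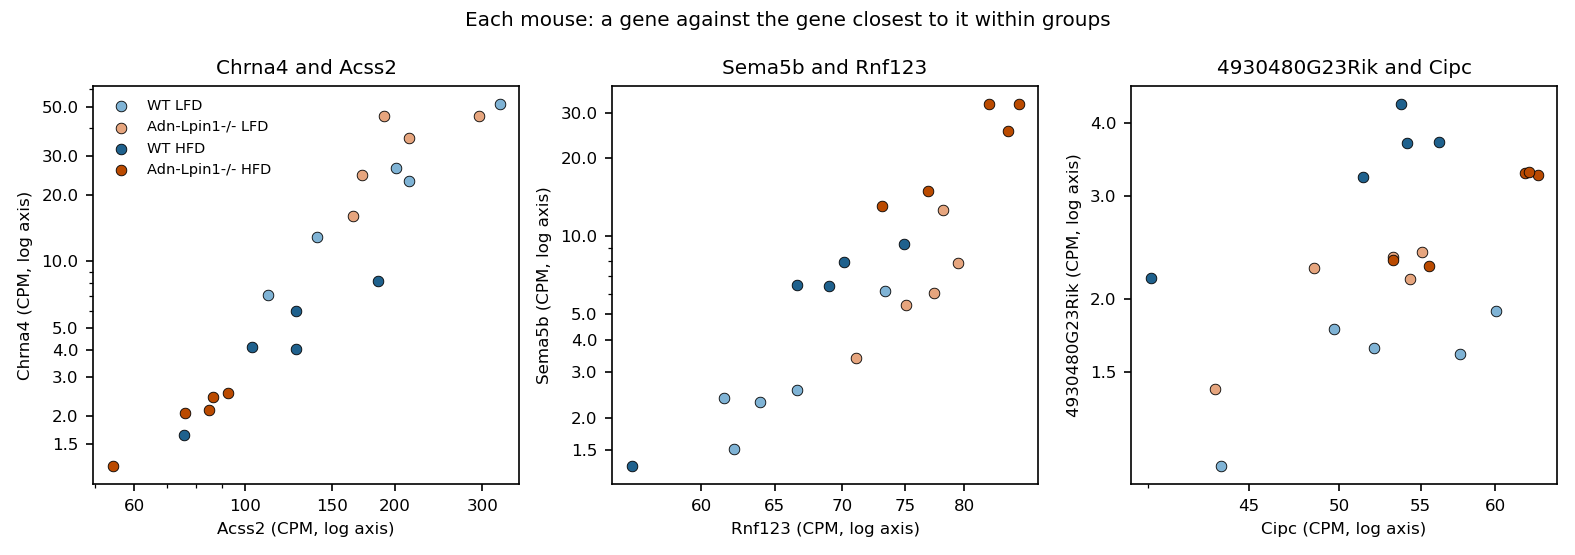
Each of the 20 mice by the level of Chrna4, Sema5b or 4930480G23Rik (vertical, CPM, log axis) and of the gene closest to it within groups (horizontal, CPM, log axis), coloured by group. Chrna4 tracks Acss2 within and between groups (r = 0.92 with the group means taken out), while Rnf123 and Cipc track the mice of a group more closely than they track the diets. The lowest mouse for Rnf123 and for Cipc is WT HFD mouse 5.

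Among the 8 genes themselves the same measure was positive for Sema5b with 4930480G23Rik (0.61), Fam25c with Moxd1 (0.59) and Dop1b with 4930480G23Rik (0.57), and negative for 4930480G23Rik with Moxd1 (-0.66), Sema5b with Fam25c (-0.63) and Sema5b with Moxd1 (-0.59). WT HFD mouse 5 entered all of these. It was the lowest of its group for 5 of the 8 genes (Chrna4, Sema5b, Pmm1, Dop1b and 4930480G23Rik) and the highest for the other 3. It was also the lowest or highest of its group for 54.6% of all genes tested, where the share for a mouse ranged from 30.05% to 54.6%. Without WT HFD mouse 5, the diet difference in WT was -2.12 for Chrna4, 1.34 for Sema5b, 0.64 for 1810046K07Rik and 1.24 for 4930480G23Rik, and the genotype difference averaged over the diets was 1.44 for Sema5b, -1.30 for 1810046K07Rik and -2.76 for Moxd1, with Sema5b and 1810046K07Rik past the threshold (adjusted p = 0.000582 and 0.00153, edgeR).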

How the data were processed

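Liver RNA of 20 single mice (5 per group) and 4 pools was analysed. According to the study's methods and processing notes, the authors aligned reads to GRCm38 with STAR 2.5.1a, assigned uniquely aligned reads to Ensembl genes with featureCounts 1.4.6-p5 and deposited a raw count, CPM and RPKM for each gene. The deposited CPM was checked against the counts, the deposited RPKM was not used, and all values were computed from the deposited counts. The 355 rRNA genes were left out, genes above 1 CPM in at least 4 of 20 libraries were kept, and edgeR 4.0.16 (TMM scaling, 4 group means, quasi-likelihood test, Benjamini-Hochberg adjustment over 13052 genes, threshold 0.05) was run in R 4.3.3. Permutation tests used log2(CPM + 0.5) and all 63504 arrangements of genotype within diet. Pools were left out as repeats of the same mice. That mice were separate animals comes from the labels. Symbols matched 97.5% of identifiers, and gene types and coordinates were from GENCODE on GRCm38. The code was tested on simulated data. Alternatives were DESeq2 1.42.0, voom with quality weights (limma 3.58.1), RLE scaling, other filters, pools as sixth libraries, the 2 groups alone, a replicate block, thinned counts and each mouse left out. The 8 genes, the lists, the markers and the motifs were chosen with earlier results of these data known. The named genes were the 8 and the 3 genes most like each within groups. Others came from the nearest tested gene on either side within 100 kb, paralogs, and some of the list genes that were called. All 3 skeletal muscle markers were under the filter, so none could be called. Of the lymphocyte, mesothelium, and neuron and Schwann cell markers, 1 of 4, 2 of 4 and 1 of 5 were tested, without a call. Of the pancreatic acinar list only Cela1 was tested and was lower in Adn-Lpin1-/- livers (-0.84). The hepatocyte marker Tf had no matching symbol. A gene that the rule on named genes picked is not reported here.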

Additional observations from a re-analysis of the deposited data

Results flagged for a closer look

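In 6 of the 32 sets of 5 mice (8 genes in 4 groups), 1 mouse stood apart from the others of its group by Dixon's criterion (limit 0.71 for the gap over the range). For normally distributed values chance marks about 1 set in 20. The criterion was applied to CPM without a log scale, and the 32 sets share the same mice. The rate that chance gives here is therefore not known. Moxd1 had such a mouse in both WT groups: WT LFD mouse 2 at 19.99 CPM (889 counts; the others 0.592 to 4.53 CPM) and WT HFD mouse 5 at 5.55 CPM (324 counts; the others 0 to 0.571 CPM). Sema5b in WT LFD mouse 5 was at 6.14 CPM, with the others between 1.52 and 2.56 CPM. 1810046K07Rik in Adn-Lpin1-/- LFD mouse 5 was at 0.721 CPM (44 counts), with the others between 0.17 and 0.287 CPM. Pmm1 in Adn-Lpin1-/- HFD mouse 2 was at 8.69 CPM, with the others between 4.53 and 5.46 CPM, and without it the diet difference in Adn-Lpin1-/- was 0.82 on the log2 scale. 4930480G23Rik in Adn-Lpin1-/- LFD mouse 3 was the only low one, at 1.4 CPM with the others between 2.16 and 2.40 CPM.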

How the results depend on the processing

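Of the log2 fold changes of the 8 genes, 337 values under other settings and 775 with 1 mouse left out kept their direction and their side of the threshold (for diet differences, their size within the spread between mice), while 5 and 10 lost a call, 8 and 10 gained one, 1 and 4 turned in direction and 1 and 1 moved in size. Genes called by diet in WT (144) came to 400 with DESeq2, 670 with voom, 687 with the pools, 72 with only the 2 groups and 90 with the replicate block, and those in Adn-Lpin1-/- (321) to 577 with DESeq2, 958 with the pools and 161 with only the 2 groups. With the pools, which repeat the same mice and so overstate the evidence, genotype calls came to 3008 (LFD) and 3760 (HFD). In that setting 5 of the 8 genes were called averaged over the diets. Of the 2 genes past the threshold on the LFD, 1 was past it with the replicate block and 1 with voom, and of the 2 on the HFD, 1 with voom (Moxd1 was not past it each time). With 1 mouse left out, the whole-table counts ranged from 55 to 289 for diet in WT, from 123 to 378 for diet in Adn-Lpin1-/-, from 1210 to 1959 for genotype on the LFD, from 1475 to 2756 on the HFD and from 3784 to 4472 averaged, and the number of the 8 genes called from 1 to 3, 1 to 3 and 3 to 4. The genotype difference of Fam25c on the LFD turned from -0.07 to 0.01 without WT LFD mouse 1, 0.0561 without mouse 2, 0.01 without mouse 3 and 0.01 without Adn-Lpin1-/- LFD mouse 4, and its range with 1 mouse left out was -0.28 to 0.06. That of 4930480G23Rik averaged over the diets turned to -0.000445 with the pools. The deviations of same-numbered mice from their group means had a correlation over 0.1 in 6 of 30 pairs (median -0.01, range -0.41 to 0.28). Whether mice with the same number share a litter or a batch is not given in the labels and was not tested. With the replicate block, 3 of the 8 genes were past the threshold averaged over the diets, and on the LFD Moxd1 was at -3.12. Counts were lowest for Moxd1 and for 1810046K07Rik in Adn-Lpin1-/- LFD (at most 44 per mouse in that group). The cause of these changes was not tested.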
